A study of Mus musculus with 16 samples.

Results

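Flt3 encodes a receptor tyrosine kinase of the surface of early blood progenitors and dendritic cells. Its ligand, Flt3l, drives the formation and expansion of dendritic cells, and Flt3 stays on as progenitors commit to the dendritic lineage. Acetylation of lysine 27 of histone H3 (H3K27ac) is found at active promoters and enhancers. The Flt3 locus was described from the regions of the authors' deposited lists that overlap chromosome 5 from 148130000 to 148225000 (mouse build mm9), where Flt3 spans about 148142000 to 148213000. This took 109 regions of 273958 in all 4 lists. Of these regions, 19 came from the list of CDP and MPP, 33 from that of cDC and CDP, 28 from that of pDC and CDP, and 29 from that of pDC and cDC.

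The lists compare 4 sorted mouse cell types of strain C57BL/6, without any treatment or mutation named in the labels. MPP are multipotent progenitors, CDP are common dendritic cell progenitors, cDC are classical dendritic cells and pDC are plasmacytoid dendritic cells, which are known for making type I interferon. Each cell type had 2 H3K27ac libraries, made from chromatin of 1000000 cells sheared to 200 to 400 bp and 1 µg of antibody. The sources used here do not say the age or sex, nor whether the 2 libraries came from separate animals or cultures, so that p-values measure the spread between these libraries, which may be technical. In sorted bulk cells, more cells carrying the mark and more of the mark per cell cannot be told apart. The cell types were not checked against marker genes, because gene positions in mm9 were not used here.

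Each region came with a signal for each of the 4 libraries of its list. These signals are whole numbers that had been scaled per library and list, so that the read depth is unknown and levels were compared only within a list. The second-listed cDC library was the higher one, with a median log2 gap of 0.50 over each of its lists, and of 0.66 (list with CDP) and 0.72 (list with pDC) over the Flt3 regions. For pDC this gap was 0.19 (list with CDP) and 0.17 (list with cDC), and 0.41 and 0.44 over the Flt3 regions. For CDP it was 0.19 to 0.23 over its lists and 0.29 to 0.35 over the Flt3 regions. For MPP it was -0.31 over the list and -0.13 over the Flt3 regions. Values below are given as first-listed and second-listed library. Differences per region are those of limma on log2(signal + 1), fitted on every region of a list with Benjamini-Hochberg adjustment, with their standard error (SE). A region was called at an adjusted p under 0.05. The authors had drawn the listed regions from comparisons of the same libraries, so that these p-values are not independent of that selection. Not every listed region had a small deposited p-value. At Flt3 its −log10 went down to 0.433, for the region from 148199551 to 148199750 in the list of cDC and CDP.

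Flt3 is read from the upper to the lower coordinate, and positions are given as distance into the gene from about 148213000. The bases before the annotated start are shown because acetylation around the start differed between cell types. They are the 250 bases before the start in RefSeq (build GRCm38.p6, chr5:147400490-147400739, minus strand), printed 5′ to 3′, and were not mapped to mm9.
Flt3 promoter: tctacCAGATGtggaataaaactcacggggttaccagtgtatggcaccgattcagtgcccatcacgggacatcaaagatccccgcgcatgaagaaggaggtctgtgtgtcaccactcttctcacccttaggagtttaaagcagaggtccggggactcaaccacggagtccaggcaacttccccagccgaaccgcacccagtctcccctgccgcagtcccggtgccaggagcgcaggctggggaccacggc
Capitals mark the 1 match to any of 6 motifs searched on both strands, an E-box (CANNTG, bound by E proteins) at 245 bases before the start, which 66.2% of 32851 mouse promoters of that length also hold. The MYC-type E-box CACGTG, a form of CANNTG, was not in these bases and was in 6.02% of promoters. The PU.1 and ETS core GAGGAA (23.3% of promoters), the RUNX core TGTGGT (14.0%), the GC box GGGCGG (32.7%) and the TATA box TATAAA (12.4%) were not in them either. G and C made up 59.2% of the bases, against a median of 52.4% over all promoters, and there were 13 CpG, against a median of 6. In the same annotation the long non-coding RNA gene Gm26597 overlaps Flt3, and the next coding genes are Pan3 on the start side and Urad and Cdx2 on the other.

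The listed regions, called or not, lay within Flt3, at its start and upstream of it. Joined over all lists where they overlap or touch, the 109 regions formed 20 stretches. Of the regions, 98 lay in the gene body, 7 within 3 kb of the start and 4 upstream of it, while 0 lay between the far end of the gene and the lower edge of the window. Both upstream places were in the lists with pDC and in no other. The largest stretches had their centres 1.5 kb (the start), 8.4 kb, 12.1 kb, 36.4 kb, 46.0 kb and 60.3 kb into the gene. Whether they fall on exons or introns was not analysed here.

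**Figure D1:**
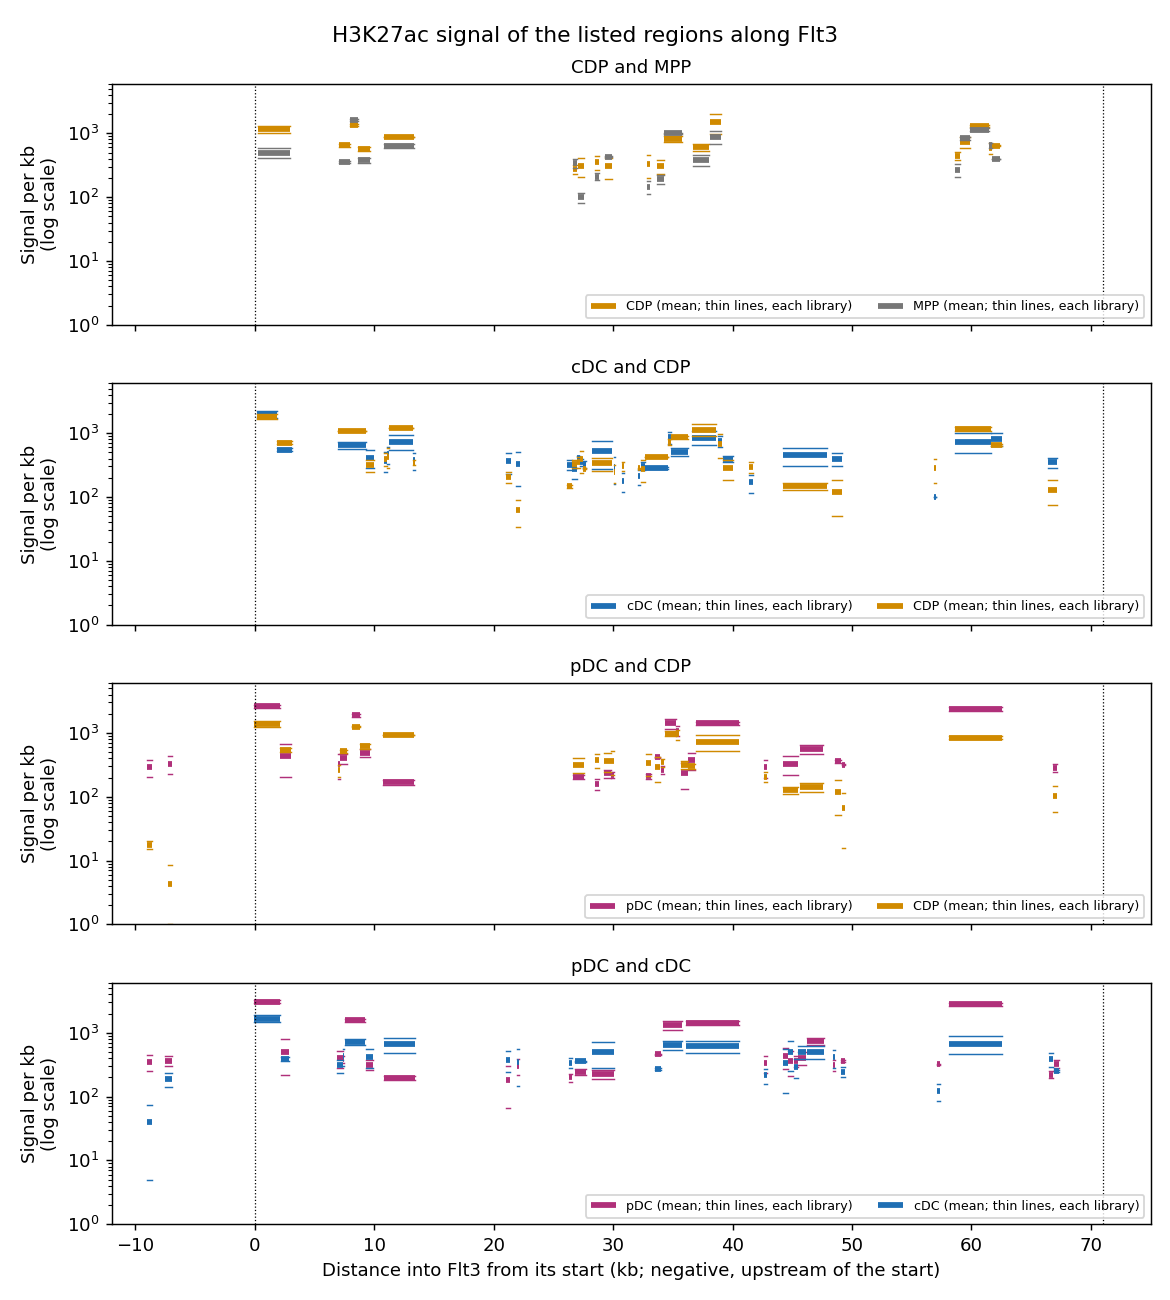
H3K27ac signal per kb (log axis) of every listed region along Flt3, with 1 panel per list, against distance into the gene in kb; thick bars are means of 2 libraries, thin lines the libraries, with values under 1 drawn at 1, and dotted lines the ends of the gene. In both lists with pDC, pDC lay above the other cell type in the longer region at the start and at 60.3 kb, and below it at 12.1 kb, while in the shorter region behind the start the libraries overlapped.

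In the step from MPP to CDP, acetylation rose around the start of Flt3 and at a short region within the gene. The region from 148210051 to 148212750 had signals of 2737 and 3470 in the CDP libraries, against 1599 and 1096 in the MPP libraries. Both CDP libraries lay above both MPP libraries, and the means were 3103.5 ± 518 in CDP and 1347.5 ± 356 in MPP (SD, n = 2 each), a 2.30-fold difference. The fitted log2 difference was 1.22 (SE 0.30, limma adjusted p = 0.00717). The call was lost without the second-listed CDP library (adjusted p = 0.112) and without the second-listed MPP library (0.104). At 27.3 kb, the region from 148185451 to 148185950 had 102 and 207 in the CDP libraries, against 41 and 59 in the MPP libraries, with a log2 difference of 1.54 (SE 0.53, limma adjusted p = 0.046). It was called in neither fit that left out an MPP library (adjusted p = 0.209 without the first, 0.101 without the second), nor without the second-listed CDP library (0.428).

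The other 17 regions of this list were not called, and their fitted log2 differences ran from -0.61 to 1.06. Called regions made up 2 of 19 at Flt3 (10.5%), against 19.4% of all 60816 regions of the list. Both were higher in CDP, as were 8.42% of all regions, while 6675 of all 60816 were called as higher in MPP. Without a library the count was 0 (second-listed CDP or second-listed MPP library), 1 (first-listed MPP) or 3 (first-listed CDP). The libraries did not overlap in 12 regions higher in CDP and 3 higher in MPP, where 26.8% and 32.2% of the list did so. The median log2 difference was 0.62 over the Flt3 regions and -0.11 over the list. With autosomal totals made equal, the list's median moved to 0.018 and 6 Flt3 regions were called, each higher in CDP. At 12.1 kb, the region from 148199651 to 148202200 had 2262 and 2213 in the CDP libraries, against 1716 and 1495 in the MPP libraries, with a log2 difference of 0.48 (SE 0.29, limma adjusted p = 0.268; 0.028 with equal totals). At 32.9 kb, the region from 148179901 to 148180200 had 60 and 137 in the CDP libraries, against 54 and 34 in the MPP libraries (log2 difference 1.06, SE 0.62, limma adjusted p = 0.259). At 60.3 kb, the largest region, from 148151551 to 148153150, had 2162 and 1992 in the CDP libraries, against 1728 and 1935 in the MPP libraries (log2 difference 0.18, SE 0.29, limma adjusted p = 0.695).

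Summed over the gene body regions, 15.35 kb in all, signal was 11334 and 12705 in the CDP libraries, against 10353 and 9600 in the MPP libraries, a 1.20-fold difference. Within a library, the ratio of 2 places does not depend on how the library was scaled. The signal at 60.3 kb was 1.32 and 0.935 times that at the start in CDP libraries, against 1.82 and 2.89 times in MPP libraries. At 36.4 kb these ratios were 1.10 and 1.28 in the CDP libraries, against 2.08 and 2.48 in the MPP libraries. In both, the libraries did not overlap, and the start gained on the gene body (two-sided exact permutation p = 0.333 each, the smallest that 2 against 2 libraries allow).

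**Figure D2:**
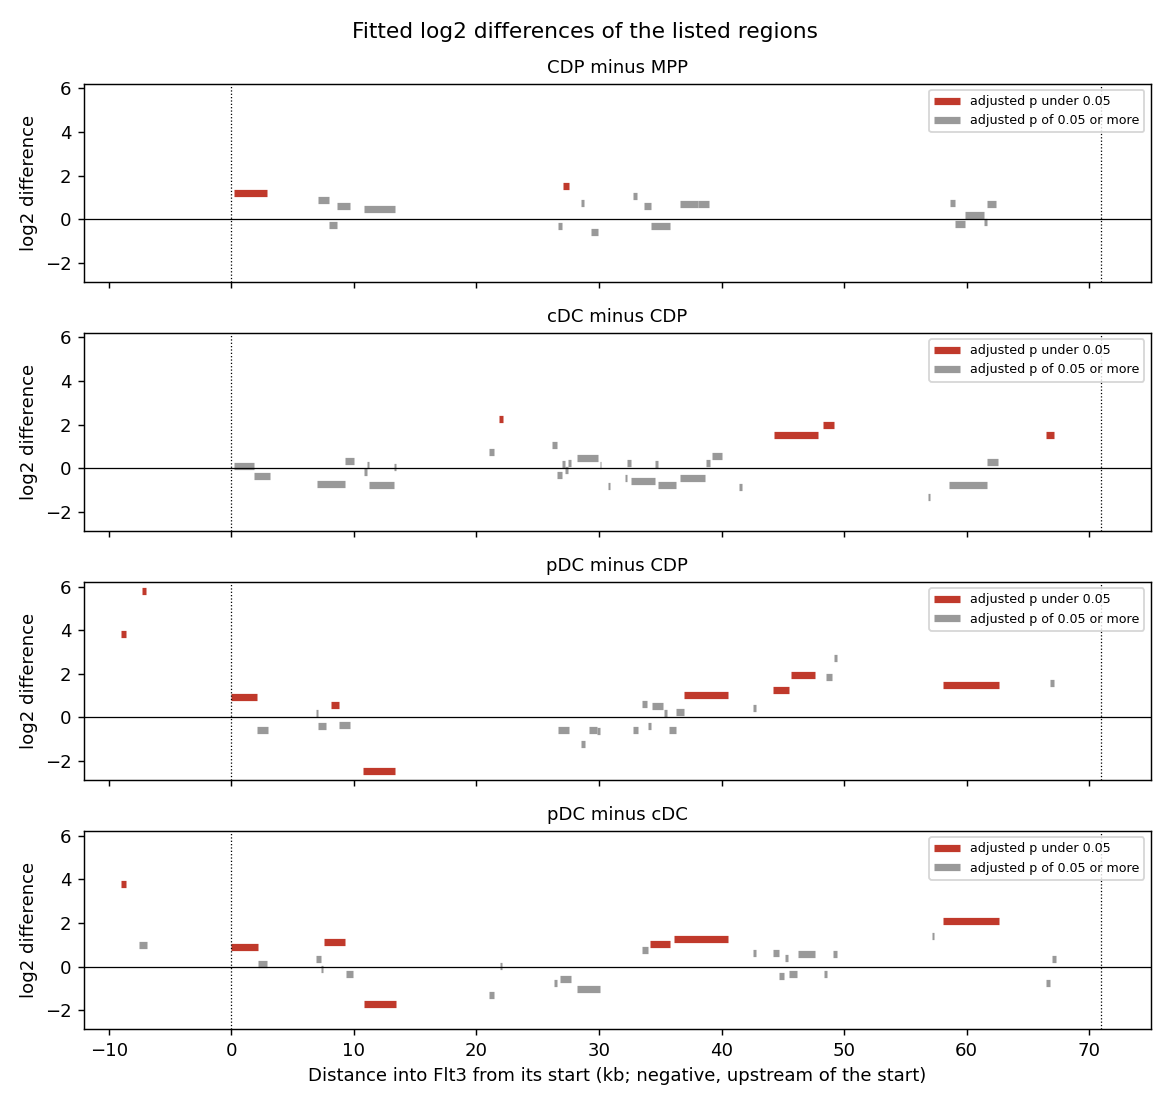
Fitted log2 difference of each listed region (vertical axis) against distance into Flt3 in kb, with 1 panel per comparison; red bars are regions with a limma adjusted p under 0.05, grey bars the others, and dotted lines the ends of the gene. Each called region of the CDP and MPP list and of the cDC and CDP list lies above 0, and 1 called region in each list with pDC lies below 0, at 12.1 kb.

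From CDP to cDC, the 4 called regions lay within the gene and were higher in cDC, while the start was not told apart. The libraries did not overlap in 10 regions lower in cDC (36.0% of the list did so) and 6 higher (22.0%). None of the lower ones was called by limma on the deposited signals. At 46.0 kb, the region from 148165101 to 148168750, 3.65 kb long, had 1133 and 2137 in the cDC libraries, against 470 and 604 in the CDP libraries. Both cDC libraries lay above both CDP libraries, and the means differed 3.04-fold (log2 difference 1.54, SE 0.39, limma adjusted p = 0.00413). The call was lost without the second-listed cDC library (adjusted p = 0.0629) and without the first-listed CDP library (0.146). Next to it, at 48.7 kb, the region from 148163851 to 148164700 had 263 and 410 in the cDC libraries, against 42 and 158 in the CDP libraries (log2 difference 1.99, SE 0.56, limma adjusted p = 0.00937). That call was lost without the first-listed cDC library (adjusted p = 0.0894), the second-listed cDC library (0.173) or the first-listed CDP library (0.450).

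The other called regions were short and weaker. Near the far end of the gene, at 66.8 kb, the region from 148145851 to 148146550 had 200 and 287 in the cDC libraries, against 53 and 129 in the CDP libraries (log2 difference 1.52, SE 0.55, limma adjusted p = 0.0442). At 22.0 kb, the region from 148190801 to 148191150 had 52 and 174 in the cDC libraries, against 31 and 12 in the CDP libraries (log2 difference 2.24, SE 0.80, limma adjusted p = 0.0412). In both the libraries did not overlap. The region at 66.8 kb was called in no fit that left out a library (adjusted p = 0.108 without the first cDC library, 0.208 without the second, 0.607 without the first CDP library and 0.0652 without the second). The region at 22.0 kb lost its call without the second cDC library (0.284), without the first CDP library (0.0611), without the second (0.378), and with equal autosomal totals (0.0566).

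The start did not pass the test. The region from 148211151 to 148212800 had 2880 and 3646 in the cDC libraries, against 2698 and 3291 in the CDP libraries, and the libraries overlapped (log2 difference 0.12, SE 0.34, limma adjusted p = 0.838). The region just behind it, from 148209851 to 148211150, had 686 and 751 in the cDC libraries, against 864 and 989 in the CDP libraries (log2 difference -0.36, SE 0.38, limma adjusted p = 0.574). In this shorter region both cDC libraries lay below both CDP libraries, with a deposited −log10 p of 6.80. The summed signal of the 2 regions overlapped. Together they averaged 3981.5 ± 588 in cDC and 3921 ± 508 in CDP (SD, n = 2 each), a 1.02-fold difference.

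Of the 33 regions, 14 had a negative log2 difference and 0 of these passed limma on the deposited signals. The 3 with the highest signal in CDP lay at 12.1 kb, 8.4 kb and 60.3 kb. At 12.1 kb, the region from 148199751 to 148201800 had 1126 and 1900 in the cDC libraries, against 2470 and 2493 in the CDP libraries (log2 difference -0.76, SE 0.36, limma adjusted p = 0.131). At 8.4 kb, the region from 148203701 to 148206000 had 1312 and 1678 in the cDC libraries, against 2490 and 2459 in the CDP libraries (log2 difference -0.74, SE 0.35, limma adjusted p = 0.134). At both places both cDC libraries lay below both CDP libraries. So they did in a region of the 36.4 kb stretch, from 148176701 to 148178150, which had 636 and 837 in the cDC libraries, against 1158 and 1319 in the CDP libraries (log2 difference -0.76, SE 0.38, limma adjusted p = 0.156). With equal autosomal totals these 3 regions passed, with adjusted p = 0.0327 at 12.1 kb, 0.0314 at 8.4 kb and 0.0455 in the 36.4 kb stretch. At 60.3 kb, the region from 148151351 to 148154400 had 1487 and 3009 in the cDC libraries, against 3852 and 3335 in the CDP libraries (log2 difference -0.76, SE 0.36, limma adjusted p = 0.132). There too both cDC libraries lay below both CDP libraries. Sums over the whole 60.3 kb stretch overlapped, with 2057 and 3913 in cDC, against 4458 and 3908 in CDP. The authors' deposited −log10 p was 69.3 for this region, 52.9 for that at 12.1 kb and 54.4 for that at 8.4 kb, each with CDP higher. Without the second-listed cDC library the adjusted p was 0.019 at 60.3 kb and 0.028 at 12.1 kb.

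Of the 33 regions of the cDC and CDP list, 4 were called (12.1%), each higher in cDC, against 22.0% of all 76865 regions, 7.64% higher in cDC and the others (11045 regions) higher in CDP. With the first-listed CDP library left out, 0 regions were called. With the second-listed cDC library left out, none of the 4 was called, and the 2 regions that were, at 60.3 kb (log2 difference -1.27) and 12.1 kb (-1.14), were lower in cDC. Each fit without another library called 2 of the 4. With equal totals 6 were called, 3 higher in cDC and 3 higher in CDP. The libraries overlapped in 17 regions, and did not in 6 higher in cDC and 10 higher in CDP, against 22.0% and 36.0% of the list. Summed over the 33 regions, signal was 14482 and 22568 in the cDC libraries, against 19548 and 22019 in the CDP libraries (log2 ratio -0.17, two-sided exact permutation p = 1.00). The sign of that ratio rested on the first-listed cDC library, without which it was 0.12. The ratio of the 46.0 kb stretch to the start was 0.318 and 0.486 in cDC libraries, against 0.132 and 0.141 in CDP libraries. The ratio of the 12.1 kb stretch to the start was 0.361 and 0.503 in the cDC libraries, against 0.770 and 0.628 in the CDP libraries. Against the start, the weight of these places thus moved in opposite directions within a library (exact permutation p = 0.333 each, the smallest possible). Regions of both stretches had already differed in these same libraries, so the ratios are not separate support.

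From CDP to pDC, acetylation rose at the start, upstream of it and over the far part of the gene, and the 1 called fall lay in between. At 60.3 kb, a single region of 4.5 kb, from 148150401 to 148154900, had 10026 and 11570 in the pDC libraries, against 4033 and 3557 in the CDP libraries. Both pDC libraries lay far above both CDP libraries, and the means of 10798 ± 1092 in pDC and 3795 ± 337 in CDP (SD, n = 2 each) differed 2.84-fold (log2 difference 1.51, SE 0.16, limma adjusted p = 0.000653). Its deposited −log10 p of 763 ranked 962 among the 69958 regions in the authors' deposited table, and its length ranked 643. The size of its log2 difference stood at the 63.1 percentile of the list.

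The called fall was at 12.1 kb. There the region from 148199651 to 148202250 had 403 and 470 in the pDC libraries, against 2410 and 2382 in the CDP libraries. The libraries of a cell type lay close together, and the means of 436.5 ± 47.4 in pDC and 2396 ± 19.8 in CDP (SD, n = 2 each) put CDP 5.48-fold higher. The log2 difference was -2.46 (SE 0.21, limma adjusted p = 0.000296), and its size stood at the 78.0 percentile of the list. At 29.2 kb and 26.9 kb, both pDC libraries also lay below both CDP libraries in summed signal, without a called region. The sums were 275 and 203 in pDC, against 289 and 556 in CDP, at 29.2 kb. They were 194 and 172 in pDC, against 209 and 364 in CDP, at 26.9 kb. The 12.1 kb region was the only one of 28 called as lower in pDC. The call held without each library in turn, with an adjusted p of up to 0.0196.

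The start and the middle of the gene rose less. At the start, the region from 148210901 to 148213050 had 5359 and 5940 in the pDC libraries, against 2689 and 3304 in the CDP libraries, a 1.89-fold difference (log2 difference 0.92, SE 0.18, limma adjusted p = 0.00625). Its call was lost without the first-listed pDC library (adjusted p = 0.0759) or the second (0.101). The shorter region behind it, from 148210001 to 148210900, did not rise: it had 182 and 602 in the pDC libraries, against 453 and 531 in the CDP libraries, which overlapped (log2 difference -0.57, SE 0.53, limma adjusted p = 0.418). At 38.7 kb, the region from 148172451 to 148176050 had 4753 and 5428 in the pDC libraries, against 1903 and 3298 in the CDP libraries (log2 difference 1.02, SE 0.27, limma adjusted p = 0.0211). This call was lost without the first pDC library (0.137), the second (0.186) or the first CDP library (0.0641). A narrow region at 8.4 kb, from 148204201 to 148204900, had 1258 and 1386 in the pDC libraries, against 896 and 853 in the CDP libraries (log2 difference 0.59, SE 0.20, limma adjusted p = 0.0482). It was called in no fit that left out a library (adjusted p = 0.144 and 0.209 without the first and second pDC library, 0.0829 and 0.0968 without the first and second CDP library), nor with equal totals (0.215).

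At 46.0 kb, pDC were again above CDP. The region from 148165401 to 148167350 had 917 and 1248 in the pDC libraries, against 230 and 324 in the CDP libraries, a 3.90-fold difference (log2 difference 1.97, SE 0.29, limma adjusted p = 0.00227), and the call held without each library. Beside it, from 148167501 to 148168800, signals were 280 and 564 in the pDC libraries, against 145 and 184 in the CDP libraries (log2 difference 1.28, SE 0.41, limma adjusted p = 0.0421). That call was lost without the second pDC library (0.247), the first CDP library (0.220), the second CDP library (0.148) and with equal totals (0.0541). A region of 250 bp at 49.3 kb, from 148163551 to 148163800, had 81 and 79 in the pDC libraries, against 4 and 29 in the CDP libraries, and was not called (log2 difference 2.73, SE 0.94, limma adjusted p = 0.0517; 0.0235 without the second-listed CDP library).

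Upstream of the start, CDP had next to no signal. At 7.1 kb before the start, the region from 148219951 to 148220300 had 81 and 151 in the pDC libraries, against 0 and 3 in the CDP libraries (log2 difference 5.80, SE 1.00, limma adjusted p = 0.00399). At 8.8 kb before it, the region from 148221601 to 148222000 had 83 and 149 in the pDC libraries, against 6 and 8 in the CDP libraries (log2 difference 3.82, SE 0.68, limma adjusted p = 0.00461). These differences are on the scale of signal plus 1, on which a level near 0 makes the fold depend on the added 1. Both calls held without each library in turn. Both places were weak, with 331 and 290 signal units per kb in pDC, against 2628 per kb at the start region.

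Of the 28 regions of the pDC and CDP list, 9 were called (32.1%), 8 higher in pDC and 1 higher in CDP, against 44.9% of all 69958 regions, 25.2% higher in pDC and 19.7% higher in CDP. With equal totals, which moved the list's median log2 difference to -0.27 (0.03 as deposited), 8 were called, 6 higher in pDC and 2 higher in CDP. Without the second-listed pDC library 5 were called. The libraries did not overlap in 12 regions higher in pDC and 5 higher in CDP, against 39.7% and 37.8% of the list. Summed over the 28 regions, signal was 26598 and 31826 in the pDC libraries, against 16013 and 18340 in the CDP libraries, a 1.70-fold difference (two-sided exact permutation p = 0.333, the smallest possible). The within-library ratio of the 12.1 kb stretch to the start was 0.0727 and 0.0718 in the pDC libraries, against 0.767 and 0.621 in the CDP libraries, which is 9.55-fold lower in pDC. That of the 60.3 kb stretch to the start was 1.81 and 1.77 in the pDC libraries, against 1.28 and 0.928 in the CDP libraries.

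**Figure D3:**
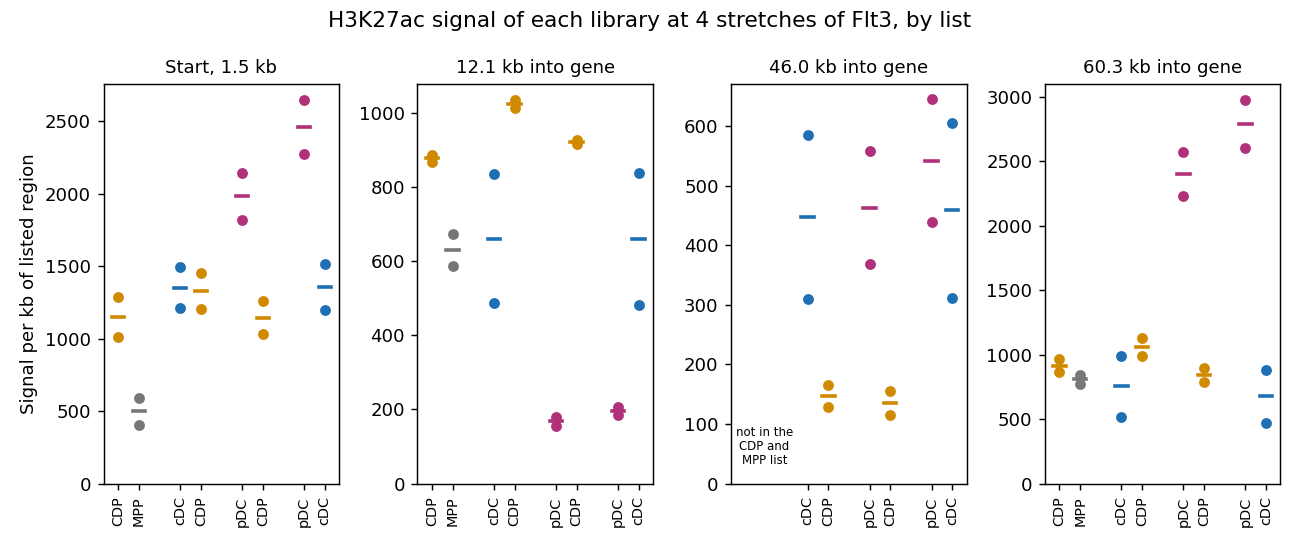
Signal per kb of listed region (vertical axis, from 0) of each library at 4 stretches of Flt3, with 1 pair of cell types per list; points are libraries and lines means of 2. Levels compare within a pair only: at 12.1 kb the pDC libraries lie below both CDP and both cDC libraries, and at 60.3 kb above them, while at 46.0 kb the cDC and pDC libraries overlap.

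Between pDC and cDC the direct list gave the same places at 60.3 kb and 12.1 kb. The region from 148150401 to 148154900 had 11725 and 13402 in the pDC libraries, against 2126 and 3982 in the cDC libraries, a 4.11-fold difference (log2 difference 2.11, SE 0.34, limma adjusted p = 0.0018). The call held without each library. Its deposited −log10 p of 1351 ranked 356 among 66319 regions in the authors' deposited table. At 12.1 kb, the region from 148199601 to 148202200 had 481 and 541 in the pDC libraries, against 1251 and 2177 in the cDC libraries (log2 difference -1.69, SE 0.35, limma adjusted p = 0.00625). Both pDC libraries lay below both cDC libraries, and without the first-listed pDC library the adjusted p was 0.0516.

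The start, the 8.4 kb stretch and the middle of the gene were also higher in pDC than cDC. At the start, the region from 148210851 to 148213050 had 6432 and 7120 in the pDC libraries, against 3213 and 4105 in the cDC libraries, a 1.85-fold difference (log2 difference 0.90, SE 0.27, limma adjusted p = 0.0331; 0.382 and 0.478 without the first and second pDC library). The shorter region behind it, from 148210101 to 148210800, had 150 and 553 in the pDC libraries, against 249 and 289 in the cDC libraries, and was not called (log2 difference 0.10, SE 0.59, limma adjusted p = 0.890). At 8.4 kb, the region from 148203751 to 148205450 had 2481 and 2833 in the pDC libraries, against 1106 and 1363 in the cDC libraries (log2 difference 1.11, SE 0.28, limma adjusted p = 0.0161; 0.162 and 0.261 without the first and second pDC library). The region from 148172451 to 148176900 had 5849 and 6903 in the pDC libraries, against 2167 and 3277 in the cDC libraries (log2 difference 1.25, SE 0.30, limma adjusted p = 0.012; 0.142 and 0.244 without the first and second pDC library). At 35.0 kb, the region from 148177201 to 148178850 had 1806 and 2524 in the pDC libraries, against 879 and 1216 in the cDC libraries (log2 difference 1.05, SE 0.32, limma adjusted p = 0.0339). That call was lost without the first pDC library (0.129), the second (0.417) or the first cDC library (0.0945).

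Upstream, the place 8.8 kb before the start, from 148221601 to 148222000, had 99 and 179 in the pDC libraries, against 2 and 30 in the cDC libraries (log2 difference 3.80, SE 1.10, limma adjusted p = 0.0275). The call was lost without the second pDC library (0.0614) or the first cDC library (0.0687). The place 7.2 kb before the start, from 148219901 to 148220500, had 178 and 261 in the pDC libraries, against 85 and 141 in the cDC libraries, and was not called (log2 difference 0.97, SE 0.49, limma adjusted p = 0.177). At 46.0 kb, where cDC and pDC each lay above CDP, none of the 5 regions was called between them. Summed over 3.3 kb of these regions, signal was 1449 and 2128 in the pDC libraries, against 1030 and 1999 in the cDC libraries, and the libraries overlapped. At 29.2 kb, the region from 148182901 to 148184800 had 488 and 362 in the pDC libraries, against 524 and 1385 in the cDC libraries, and was not called (log2 difference -1.02, SE 0.47, limma adjusted p = 0.137; 0.0182 with equal totals; 0.0229 where the lower cDC library was left out).

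Of the 29 regions of the pDC and cDC list, 7 were called (24.1%), 6 upward in pDC and 1 downward, against 32.6% of all 66319 regions, 23.3% higher in pDC and 9.32% higher in cDC. With equal totals, which moved the list's median log2 difference to -0.26 (0.22 as deposited), 10 were called, 6 with pDC above cDC and 4 with it below. The libraries did not overlap in 12 regions higher in pDC and 5 with cDC on top, against 41.8% and 26.0% of the list. Without the first or the second pDC library, 2 regions were called in either case. Summed over the 29 regions, signal was 32466 and 38478 in the pDC libraries, against 13890 and 21861 in the cDC libraries, a 1.98-fold difference (two-sided exact permutation p = 0.333, the smallest possible).

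In their share of the locus signal, the 60.3 kb and 12.1 kb stretches set pDC apart from CDP and cDC without overlap of the libraries. With 2 against 2 libraries an exact permutation p cannot fall below 0.333. Other stretches did so too. At 8.4 kb, 29.2 kb and 26.9 kb the share was lower in pDC in both of its lists. At 8.8 kb before the start it was higher in pDC in both. The 60.3 kb stretch held 37.7% and 36.4% of the listed Flt3 signal of the pDC libraries, against 25.2% and 19.4% in CDP. Against cDC it held 36.1% and 34.8% in the pDC libraries, against 15.3% and 18.2% in the cDC libraries. The 12.1 kb stretch held 1.52% and 1.48% in the pDC libraries, against 15.0% and 13.0% in the CDP libraries. In the direct list it held 1.48% and 1.41% in the pDC libraries, against 9.01% and 9.96% in the cDC libraries. The start held a like share in pDC and CDP, with 20.8% and 20.6% in the pDC libraries, against 19.6% and 20.9% in the CDP libraries. In CDP it held 19.5% and 21.5%, against 13.4% and 10.2% in MPP. The neighbouring 8.4 kb stretch held 6.92% and 6.97% in the pDC libraries, against 11.4% and 9.06% in the CDP libraries. Its share was thus also lower in pDC, but less so than that of the 12.1 kb stretch. The ratio of the 12.1 kb to the 8.4 kb stretch was 0.219 and 0.212 in the pDC libraries, against 1.32 and 1.43 in the CDP libraries.

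**Figure D4:**
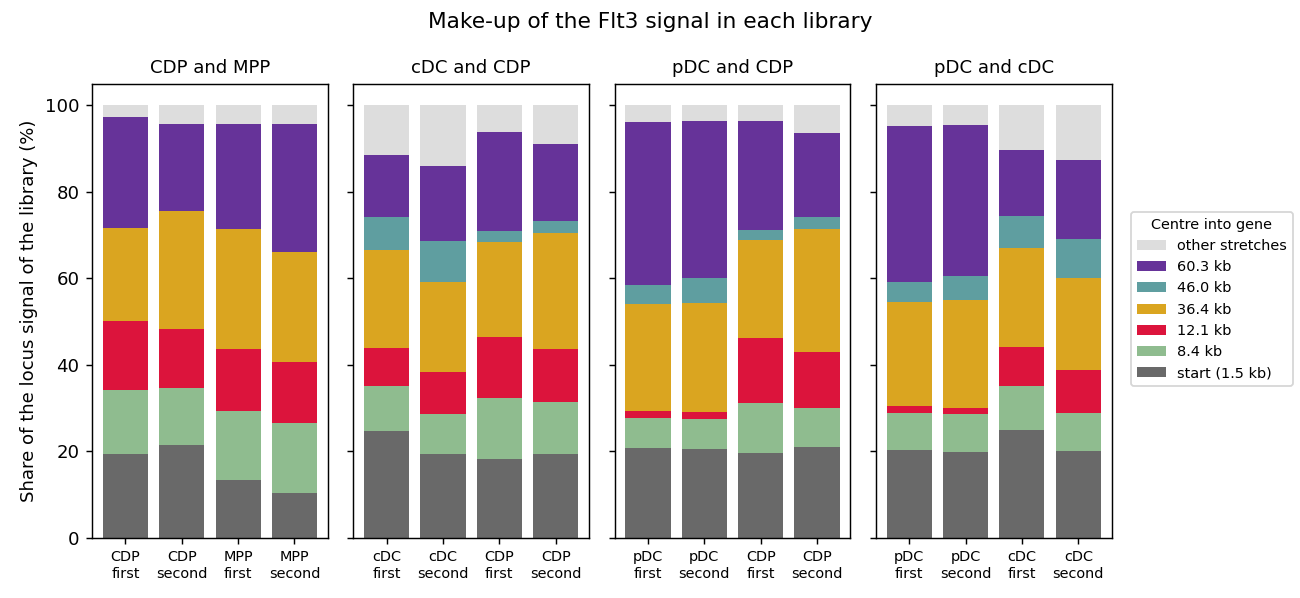
Share of the listed Flt3 signal (%) that each stretch holds in each library, with 1 panel per list; stretches are named by the distance of their centre into the gene. The 12.1 kb stretch (red) shrinks to at most 1.52% in pDC libraries, and the 60.3 kb stretch (purple) is widest in pDC.

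MPP shares no list with cDC or pDC and was compared with CDP only. At the start, MPP lay below CDP, CDP and cDC were not told apart, with overlapping libraries in the summed signal, and pDC lay above CDP. Each of these steps comes from its own list, with means of 3103.5 in CDP against 1347.5 in MPP, 3981.5 in cDC against 3921 in CDP, and 6041.5 in pDC against 3488.5 in CDP. At 60.3 kb, pDC lay above CDP and cDC, and neither CDP and MPP nor cDC and CDP were told apart by limma. In the longer region there, both cDC libraries nevertheless lay below both CDP libraries (deposited −log10 p of 69.3), while sums over the stretch overlapped. At 12.1 kb, pDC lay below CDP and cDC. MPP and CDP, and CDP and cDC, were not told apart there by limma on the deposited signals. In the largest region there the libraries of either pair did not overlap, with CDP higher. The authors' deposited −log10 p was 24.0 against MPP and 52.9 against cDC. The lists with a common cell type share its libraries, so that these comparisons are not independent of each other. Over all lists, 22 of 109 regions were called, and 6 of the 22 kept their call without each library in turn. These 6 were the 60.3 kb region in both lists with pDC, and the 12.1 kb region, the larger 46.0 kb region and both upstream regions in the pDC and CDP list.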

How the data were processed

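H3K27ac ChIP-seq of MPP, CDP, cDC and pDC (2 libraries each) was used; inputs and RNA samples (4 of each) are not analysed here. Reads were aligned with BWA 0.6.1 to mm9, per the submitters' processing notes; THOR, which calls differential peaks between conditions, is named in the series title. In the authors' deposited lists, each region has 4 scaled whole-number signals and −log10 of a p-value whose correction is not given in the sources used here. Groups were taken from list names and checked where 2 lists hold a region of the same bounds: same-named libraries differed by a constant factor of 0.842 to 1.24 (log2 SD at most 0.0587), and the SD of all other pairs was 0.456 or more. MPP is in 1 list, so its place rests on the name. Libraries carry no replicate number.

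limma 3.58.1 (R 4.3.3, trend, pseudocount 1) was fitted on each whole list. Sums used exact permutation tests. Alternatives were pseudocounts of 0.5 and 5, a mean signal of at least 50, equal autosomal totals, a 1 kb promoter window, a deposited −log10 p of at least 10, a combined rule (that p, a ratio of at least 2 and separate libraries), and leaving out each library. Full values follow a rule: regions within 3 kb of the start, and per list the 3 with the largest difference, signal and length. Called regions and a few others were named after their values were seen. Members and lists were chosen with earlier results of these data known. Coordinates are 1-based; the gene's bounds in mm9 are approximate. Scripts ran in Python 3.11.15 (pandas 2.3.3, numpy 2.4.6); figures were drawn in matplotlib 3.10.9.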

Additional observations from a re-analysis of the deposited data

Results flagged for a closer look

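At 1 stretch, from 148203001 to 148206100 (8.4 kb into Flt3), the summed signals of cDC and pDC lay on opposite sides of CDP in every library. They were 1510 and 2055 in cDC, against 2757 and 2629 in CDP, and in the other list 1841 and 2218 in pDC, against 1832 and 1662 in CDP; that gap was narrow. Of the 4 regions behind the pDC and CDP sums, only that from 148204201 to 148204900 had both pDC libraries above both CDP libraries, while those from 148203351 to 148204200 (357 and 482 in pDC, 562 and 483 in CDP) and from 148205301 to 148205900 (198 and 281 in pDC, 326 and 295 in CDP) had both below, on the same side as the cDC sums. The log2 ratio of pDC to cDC over this stretch was 0.88, with 2801 and 3336 in pDC, against 1412 and 1926 in cDC. The direct test of that difference, for the largest region there, gave a limma adjusted p of 0.0161. With equal autosomal totals the log2 ratio of pDC to CDP turned to -0.10, against 0.22 as deposited, and that of cDC to CDP stayed negative (-0.52).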

How the results depend on the processing

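The read depth is unknown and 2 libraries per cell type limit every comparison, so a region that was not called may still differ. No paired analysis was possible because the deposited signals carry no replicate number. Where 1 library of a cell type was left, it was assumed to vary like the other group. Leaving out each library gave 0 to 3 called regions for CDP over MPP, 0 to 2 for cDC over CDP (without the second cDC library both calls were lower in cDC and none of the 4 calls was kept), 5 to 9 for pDC over CDP and 2 to 7 for pDC over cDC. For cDC over CDP, the log2 ratios of sums ran from -0.52 to 0.12 (locus), -0.14 to 0.17 (promoter) and -0.63 to 0.11 (gene body), so that their sign depended on the library left out. For pDC over cDC they ran from 0.70 to 1.35 (locus) and 0.69 to 1.44 (gene body). Equal autosomal totals gave 6 called regions for CDP over MPP and a gene body ratio of 0.39. They lowered the log2 ratios of pDC over CDP to 0.46 (locus), 0.49 (promoter) and 0.44 (gene body), and those of pDC over cDC to 0.54, 0.38 and 0.57. Only regions with a deposited −log10 p of at least 10 gave 0.83 (locus) and 0.66 (gene body) for CDP over MPP, and 0.90 (gene body) for pDC over CDP. No promoter region of cDC over CDP reached that p. Of single regions, 148211151 to 148212800 (cDC over CDP) turned to -0.049 without the second cDC library and -0.02 without the first CDP library, in a range of up to 0.29. Region 148210001 to 148210900 (pDC over CDP) ran from -1.43 to 0.30, the highest without the first pDC library. Region 148210101 to 148210800 (pDC over cDC) turned to -0.38 with equal totals, -0.83 without the second pDC library and -0.004 without the first cDC library, in a range of up to 1.04; none of these was called in either setting. The causes were not tested.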
